A study of Homo sapiens with 5 samples.

Results

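The nuclear-encoded subunits of the respiratory chain were followed through RNA immunoprecipitation (RIP) of CBFB and of hnRNPK in MCF10A, a non-tumorigenic line of human mammary epithelial cells. They were the protein-coding genes whose symbols name a subunit of complex I (NDUFA, NDUFB, NDUFC, NDUFS, NDUFV and NDUFAB1), complex II (SDHA to SDHD), complex III (UQCR genes and CYC1), complex IV (COX4 to COX8 genes) or complex V (ATP5 genes). This gave 89 genes of the 56632 in each table, and 81 of them were among the 11764 analysed genes, which had a mean FPKM (fragments scaled to transcript length and library total) of at least 1 over the 5 libraries. Under the same names, 110 pseudogenes and 2 antisense or divergent RNAs were left out. The 13 subunits encoded in the mitochondrial genome and 50 assembly factors served for comparison.

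RIP recovers RNA that comes down with a protein on an antibody, and the input is RNA from the same kind of cells before the pulldown. The RIPseq libraries address which RNAs the proteins CBFB and hnRNPK bind. CBFB is the non-DNA-binding partner of the transcription factor RUNX1, while hnRNPK binds RNA through KH domains with a liking for runs of C. The groups were 1 input and 1 FLAG RIP from a stable MCF10A line expressing FLAG-tagged CBFB, and 1 input and 2 hnRNPK RIP repeats from parental MCF10A cells. None of the cells was treated, all were kept below 20 passages, and the parental cells carried no tagged protein. The study's methods describe a stable line with N-terminal FLAG on CBFB made from CBFB knockout cells for FLAG pulldown and mass spectrometry, but the labels do not say whether the RIPseq line is that one. The FLAG antibody was set against its own input, and no mock pulldown was analysed here. Nothing says that the hnRNPK repeats came from separate cultures, so their spread may be technical.

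The respiratory chain passes electrons from NADH and succinate to oxygen through complexes I to IV, and the proton gradient made on the way drives ATP synthesis by complex V. Complexes I, III, IV and V are built from subunits of both genomes, while complex II is wholly nuclear-encoded. The nuclear-encoded subunits are made on cytoplasmic ribosomes and imported, whereas the mitochondrially encoded mRNAs are transcribed and translated inside the organelle.

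Because hnRNPK favours C, the stretch of 30 bases richest in C is shown for transcripts from the low and high ends of the hnRNPK results. COX7B, the lowest, is not among them. Sequences come from the GENCODE 29 principal transcript (GRCh38), written as DNA 5′ to 3′ with runs of at least 3 C in capitals. Among nuclear-encoded genes, UQCR11 had the lowest hnRNPK value of complex III and ATP5IF1 the highest of complex V. NDUFA4 had the lowest of those with complex I names, although its protein is now placed in complex IV.
UQCR11: gctagctcctCCCacctcagcacctgctgc
NDUFA4: ccgggCCCtcctgccgcaagctgCCCtCCC
ATP5IF1: ccatgcaagCCCgaggcttcggctcggatc

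These stretches lie in exons, in the 3′ UTR of UQCR11 (chr19:1598174-1598203, minus strand) and in the 5′ UTR of NDUFA4 (chr7:10940193-10940222, minus strand). That of ATP5IF1 (chr1:28236239-28236268, plus strand) is coding. Each stretch was picked as the richest in C of its transcript, so a run of C in it says little about either end of the order. Over the 81 analysed genes the C content of the transcript ranged from 14.7 to 37.7% with a median of 23.3%, beside 24.0% over 10558 analysed protein-coding genes outside the mitochondrial genome. The letters TCCC, searched on the transcript's own strand and overlapping no other motif searched, were present in 77 of the 81 transcripts (95.1%) and in 99.5% of those of all analysed protein-coding genes, the 81 included. Transcripts of up to 600 bases held them in 5 of 9 nuclear-encoded subunits (55.6%) and in 87.6% of protein-coding genes. ATP5IF1, ATP5ME, ATP5MF and NDUFS5 were the 4 without them. Across the 81 genes, hnRNPK enrichment had a Pearson r of -0.01 with C content and 0.21 with the number of TCCC, as a description across genes that share their libraries. The principal transcript was more than 1.5 times as long as the mean length listed for the parental input in 32 of the 81 genes and up to 11.2 times as long, so much of the sequence searched there may not be what was measured.

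The libraries held between 69786576 and 106855647 expected counts. Mitochondrial genes took 4.27% and 11.2% of counts in the FLAG-CBFB cell and parental inputs, but 62.2% after FLAG pulldown and 84.5% and 86.6% after hnRNPK pulldown, so most other genes fell in FPKM in every RIP. Enrichment is therefore the log2(FPKM + 1) of a RIP minus that of its own input, centred on the mean over the analysed genes, which was -1.34 for CBFB and -2.61 and -2.68 for the hnRNPK repeats. The added 1 understates the fall of weak genes, and after centring this leaves abundant genes lower than they would otherwise be. The epithelial markers KRT5, KRT17, TP63, CDH1 and EGFR were present in every library, and KRT14 was between 0.0800 and 6.78 FPKM. The luminal keratins KRT8 and KRT18 were also present in every library, while luminal ESR1 was between 0.0800 and 0.710 FPKM and PGR at 0. Mesenchymal VIM was between 1.39 and 36.3 FPKM and FN1 between 0.340 and 20.6. The leukocyte markers PTPRC and CD3E did not exceed 0.0800 FPKM.

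The nuclear-encoded subunits stayed near the average gene in the FLAG-CBFB RIP and were far below it in the hnRNPK RIPs. Their mRNAs took 1.16% of the counts outside the mitochondrial genome in the FLAG-CBFB cell input, with a 95% Wilson interval of 1.156 to 1.161%. Their share of the FLAG-CBFB RIP was 0.970% (0.9666 to 0.9732%), which is 1.19 times lower. In the parental input they took 1.53% (1.530 to 1.536%), against 0.285% (0.2828 to 0.2881%) and 0.298% (0.2945 to 0.3006%) in the hnRNPK RIPs, which is 5.37 and 5.15 times lower. The 2 hnRNPK shares lay close together, far from that of the input. These shares need no scaling between libraries, and their intervals cover counting error only.

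**Figure D1:**
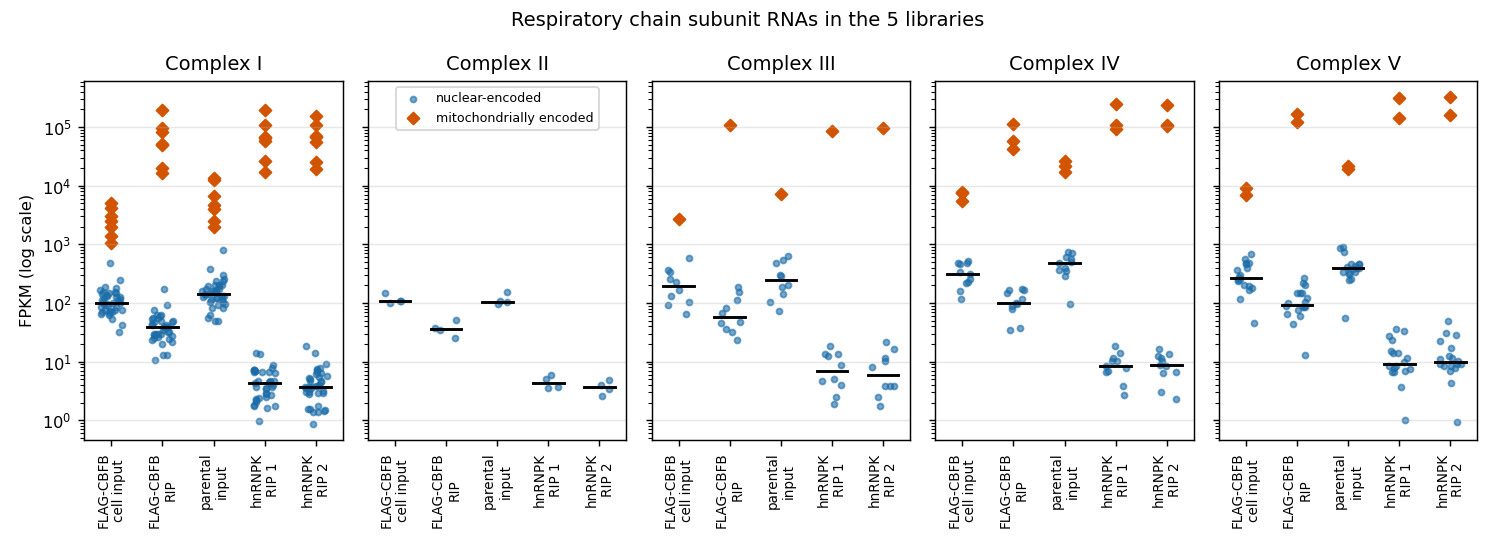
FPKM (log scale) of the 81 analysed nuclear-encoded subunits (blue points, black bar at their median) and the 13 mitochondrially encoded subunits (orange diamonds) in the 5 libraries, 1 panel per complex. The medians of complex I were 101 FPKM in the FLAG-CBFB cell input, 39.2 in its RIP, 142 in the parental input but 4.33 and 3.76 in the hnRNPK RIPs, while the mitochondrially encoded subunits rose in each RIP.

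In FPKM, the 81 subunits were between 1.74 and 5.09 times lower in the FLAG-CBFB RIP than in its input (median 2.90). They were between 15.1 and 107 times lower in hnRNPK RIP 1 (median 37.5) and between 13.9 and 115 times lower in repeat 2 (median 39.6) than in the parental input. The levels of all 81 were thus lower in each RIP than in its input, as were those of 92.7% of all analysed genes in the FLAG-CBFB RIP and of 94.1% in both hnRNPK RIPs. Before centring, the median log2 difference was -1.52 for the subunits and -1.53 for all analysed genes in the FLAG-CBFB RIP, and -4.91 against -2.75 in the hnRNPK RIPs. After centring, CBFB enrichment ranged from -0.92 to 0.54 with a median of -0.18, beside -0.19 over all analysed genes. None of the 81 was above 1 or below -1, where 9.27% and 3.81% of all analysed genes were. Each arm of this comparison was 1 library, so it has no replicate check and no test.

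hnRNPK enrichment ranged from -3.60 to -1.18 with a median of -2.27 (-2.32 and -2.28 in the repeats), beside -0.11 over all analysed genes. All 81 were below -1, where 25.3% of all analysed genes were, and 60 were below -2, where 6.24% were. Short, abundant genes were mostly low as well. Of 342 other protein-coding genes under 1000 bases and of at least 100 FPKM in the parental input, 318 were below -1 and 251 below -2. Of the 54 subunits within those bounds, 54 were below -1 and 47 below -2. None was above 1, against 20.9% of all analysed genes. The SD of the 2 repeats had a median of 0.15 over the 81 genes, and both repeats share 1 input, so the SD holds no error of the input. With a pseudocount of 0.1 in place of 1, the gap between the median of the 81 and that of all analysed genes shrank from -2.16 to -1.31, and log2 CPM with TMM factors gave -1.11.

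**Figure D2:**
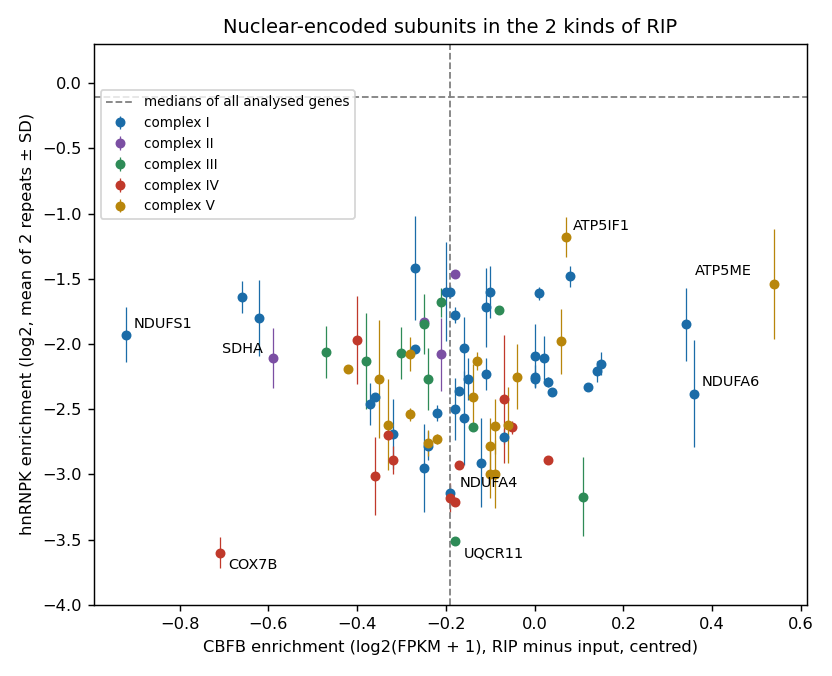
Centred CBFB enrichment (x axis, log2) against hnRNPK enrichment (y axis, log2, mean of 2 repeats with SD as bars) of the 81 subunits, coloured by complex, with dashed lines at the medians of all analysed genes (-0.19 and -0.11). The points scatter about the CBFB median and all lie between -3.60 and -1.18 for hnRNPK.

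The counts of the hnRNPK RIPs were tested against the parental input with edgeR's quasi-likelihood test, 2 libraries against 1, with Benjamini-Hochberg adjustment over 16639 genes. Of the 83 subunits tested, 69 fell and 2 rose, where 15.8% of all genes tested fell and 21.9% rose. The log2 fold changes of the 69 lay between -2.46 and -0.82, with standard errors of 0.32 to 0.40. The median over the 83 was -1.31, beside -0.12 over all genes. With the mean log2 fold change of the analysed genes set to 0, all genes split into 3323 that rose and 3825 that fell instead of 3648 and 2623, the median of all genes moved to -0.34, and 2 subunits rose and 75 fell. The gap between the subunits' median and that of all genes was -1.19 and -1.20 under the 2 scalings. These fold changes are relative to the other genes, and the spread comes from the RIP repeats alone.

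Complex I oxidises NADH and is the largest of the chain. All 38 of its nuclear-encoded genes were analysed and all were lower in the hnRNPK RIPs by FPKM, with enrichments from -3.14 to -1.42 (median -2.24). By counts, 31 fell, none rose, and NDUFA3, NDUFA10, NDUFA11, NDUFB7, NDUFB10, NDUFS4 and NDUFS7 did not pass the test. The core subunits that carry flavin and iron-sulphur clusters are among the 11 NDUFS and NDUFV genes. These had a median hnRNPK enrichment of -1.72 (range -2.95 to -1.42), against -2.33 for the 14 NDUFA genes (-3.14 to -1.78) and -2.11 for the 11 NDUFB genes (-2.71 to -1.48). The ranges of the 3 groups overlap.

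NDUFA4 was lowest of complex I for hnRNPK, at -3.14 ± 0.06 (SD, n = 2). It carries a complex I name and is counted there, although its protein is now placed in complex IV. The ranges, medians and shares of both complexes follow the names. Without it the lowest of complex I would be NDUFV2, at -2.95 on average. NDUFA4 was at 88.1 and 141 FPKM in the FLAG-CBFB cell and parental inputs, 29.9 with FLAG-CBFB, and 1.72 and 1.45 with hnRNPK. Its counts had the lowest fold change of the 83 subunits, -2.46 on the log2 scale (SE 0.35, adjusted p = 3.3e-11). NDUFV2, an iron-sulphur core subunit, and NDUFS5, an accessory subunit, were the next lowest of complex I. NDUFS5, the most abundant nuclear-encoded mRNA of complex I in the parental input, was at 804 FPKM there. It was at 13.9 and 18.8 in the hnRNPK RIPs (enrichment -3.15 and -2.67). NDUFV2 was at 296 FPKM against 4.31 and 6.08 (-3.20 and -2.71).

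The other complex I genes below -2 for hnRNPK were spread over all its families. Among NDUFA genes, mean enrichment was -2.69 for NDUFA9, -2.50 for NDUFA2, -2.46 for NDUFA11, -2.38 for NDUFA6, -2.37 for NDUFA7, and between -2.29 and -2.23 for NDUFA1, NDUFA8, NDUFA12 and NDUFA13. NDUFAB1, the mitochondrial acyl carrier protein, was at -2.53. Among NDUFB genes, NDUFB9 was lowest at -2.71, NDUFB1 was at -2.57 and NDUFB11 at -2.41, while NDUFB2, NDUFB3, NDUFB4, NDUFB5, NDUFB6 and NDUFB8 lay between -2.33 and -2.03. NDUFC1 and NDUFC2 were at -2.21 and -2.25. The core subunits NDUFS8 and NDUFS3, both in the arm that projects into the matrix, were at -2.78 and -2.36. Every gene of this paragraph except NDUFA11 fell by counts, with log2 fold changes between -2.01 and -1.02.

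In the FLAG-CBFB RIP, the nuclear-encoded genes of complex I ranged from -0.92 to 0.36. NDUFS1, the largest core subunit with several iron-sulphur clusters, had the lowest CBFB enrichment of all 81, -0.92, with 65.3 FPKM in the input and 12.8 in the RIP. Within complex I, NDUFV1, which binds flavin, and NDUFA10 followed at -0.66 and -0.62. The accessory subunits NDUFA6 and NDUFA3 were highest of the nuclear-encoded genes of the complex, at 0.36 and 0.34. NDUFA6 went from 53.3 to 26.6 FPKM, and NDUFA3 from 96.8 to 48.1, so both fell in FPKM and by less than the average gene.

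Complex II is succinate dehydrogenase, shared by the citric acid cycle and the chain. Its 4 genes lay within a narrow range for hnRNPK, from -2.11 to -1.46. SDHA, the flavoprotein, was lowest in both RIPs, with 100 and 25.6 FPKM in the FLAG-CBFB cell input and RIP (enrichment -0.59), and 109, 3.68 and 2.55 in the parental input and hnRNPK RIPs (-2.11 ± 0.23, SD, n = 2). SDHC, a membrane anchor of the complex, was highest in both, at -0.18 and -1.46 ± 0.02 (SD, n = 2). It had 102 FPKM in the parental input but 5.07 and 4.92 in the hnRNPK RIPs. SDHA and SDHB fell by counts, while SDHC (log2 fold change -0.60, adjusted p = 0.18) and SDHD (-0.82, adjusted p = 0.051) did not pass edgeR's test.

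Complex III passes electrons from quinol to cytochrome c. All 10 nuclear-encoded genes had hnRNPK enrichments between -3.51 and -1.68 (median -2.10), and 9 fell by counts. UQCR11, a small accessory subunit, was lowest at -3.51 ± 0.01 (SD, n = 2). Its level was 134 FPKM in the FLAG-CBFB cell input, 46.1 in the FLAG-CBFB RIP, 201 in the parental input but 1.92 and 1.75 in the hnRNPK RIPs, so the repeats were nearly equal. UQCRFS1, the Rieske iron-sulphur protein, was highest at -1.68 ± 0.11 (SD, n = 2), with 104 FPKM in the parental input against 4.66 and 3.83. Its counts fell by 0.84 on the log2 scale with an adjusted p of 0.042, which lay close to the threshold.

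UQCRQ, a small ubiquinone-binding subunit, had the highest CBFB enrichment of the nuclear-encoded complex III genes, at 0.11. It had 361 FPKM in the input and 153 in the RIP. In the hnRNPK RIPs it was among the lowest, at 8.90 and 11.7 FPKM against 628 in the parental input (-3.38 and -2.95). UQCR10, UQCRB, UQCRC2 and UQCRH were between -2.64 and -2.06 on average. UQCRC2, a core protein, had the lowest CBFB enrichment of the complex at -0.47. CYC1, which carries the haem of cytochrome c1, went from 305 FPKM to 12.7 and 8.08 in the hnRNPK RIPs (-1.87 and -2.39). UQCRHL is a near-identical copy of UQCRH, and RSEM divides reads that match both, so the values of both are uncertain. UQCRHL was the 1 gene of the complex that did not pass the test (log2 fold change -0.83, adjusted p = 0.15).

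Complex IV is cytochrome c oxidase. Among nuclear-encoded genes it had the lowest median hnRNPK enrichment of the 5 complexes, -2.89 over 11 analysed genes (range -3.60 to -1.97). All 11 fell by counts. COX7B, a small membrane subunit, was lowest of the whole chain at -3.60 ± 0.12 (SD, n = 2). It had 291 FPKM in the parental input but 2.72 and 3.0 in the hnRNPK RIPs, and 159 and 37.8 in the FLAG-CBFB cell input and RIP, where it was also lowest of its complex (-0.71). Its counts fell by 2.15 on the log2 scale (SE 0.35, adjusted p = 6.5e-09). COX6A1 and COX8A, other small subunits, were at -3.24 and -3.19, and at -3.10 and -3.26, in the repeats. COX6C followed at -3.22 and -2.80. COX5A, COX5B and COX7A2 lay between -2.93 and -2.89 on average, COX7C was at -2.64, and COX6B1 was at -2.42 with the widest repeat spread of all 81 genes (SD 0.49). COX4I1, the ubiquitous form of the regulatory subunit, was the most abundant nuclear-encoded mRNA of complex IV, at 744 FPKM in the parental input. It was at 18.2 and 16.6 in the hnRNPK RIPs.

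COX7A2L, which helps join complexes into supercomplexes, was highest of the nuclear-encoded complex IV genes for hnRNPK, at -1.97 ± 0.34 (SD, n = 2). It had 95.6 FPKM in the parental input against 3.77 and 2.26 in the hnRNPK RIPs. COX7A2 had the highest CBFB enrichment of these 11 genes, at 0.03. The tissue-restricted forms COX4I2, COX6A2, COX7B2 and COX8C were at 0 FPKM in every library, and COX7A1 at 0.03 or below. COX6B2, a testis form, was between 0.04 and 0.61 FPKM. It was nonetheless among the 2 subunits called higher by edgeR (log2 fold change 5.30, SE 1.19, adjusted p = 5.4e-05), which rests on 4 counts in the parental input against 30 and 6 in the hnRNPK RIPs. Its FPKM was 0.06 against 0.22 and 0.04, so the repeats lie on either side of the input.

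Complex V is ATP synthase. Its 18 analysed nuclear-encoded genes had hnRNPK enrichments from -3.0 to -1.18 (median -2.47), and 16 of the 19 tested fell. The 5 ATP5F1 genes of the catalytic head and stalk were close together, from -2.54 to -2.08, with ATP5F1C lowest and ATP5F1A highest, and ATP5F1D at -2.25. ATP5F1B, the catalytic beta subunit, was the most abundant nuclear-encoded mRNA of the chain at 698 and 888 FPKM in the FLAG-CBFB cell and parental inputs. It fell to 215 FPKM with FLAG-CBFB, and to 36.5 and 22.1 with hnRNPK, where the repeats differ but stay far under the input. The 12 ATP5M and ATP5P genes of the membrane part and stator ranged from -3.0 to -1.54. ATP5MJ and ATP5MK, small membrane subunits, were lowest, at -3.0 ± 0.18 and -3.0 ± 0.26 (SD, n = 2). The stator subunits ATP5PB, ATP5PD, ATP5PF and ATP5PO lay between -2.78 and -2.62. ATP5MC1, ATP5MC2 and ATP5MC3 encode the same c-ring protein from separate genes, and were at -2.62, -2.13 and -2.76. ATP5MF was at -2.41.

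ATP5ME, subunit e of the membrane part, had the highest CBFB enrichment of the nuclear-encoded subunits at 0.54. It had 474 FPKM in the FLAG-CBFB cell input and 272 in the RIP, the smallest fall of the 81 genes. In the hnRNPK RIPs it went from 746 to 33.2 and 48.4 FPKM (-1.84 and -1.24), and its counts did not pass the test (log2 fold change -0.41, adjusted p = 0.37, edgeR). ATP5F1E, the epsilon subunit, had the lowest CBFB enrichment of complex V at -0.42. Its listed mean transcript length of 3170 bases in the parental input is far above that of its neighbours, which lowers its FPKM. ATP5MF-PTCD1, a read-through gene, was at 2.27 FPKM in the parental input but 0.09 and 0.05 in the hnRNPK RIPs, and ATP5MGL did not exceed 0.02.

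ATP5IF1, which inhibits the ATPase activity of complex V, had the highest hnRNPK enrichment of the 81 genes, at -1.18 ± 0.15 (SD, n = 2). Its level was 204 FPKM in the FLAG-CBFB cell input, 84.1 in the FLAG-CBFB RIP, 424 in the parental input but 27.6 and 30.5 in the hnRNPK RIPs. By FPKM it was thus lower in each RIP. By counts, 10971 in the parental input against 2864 and 2978, it was called higher relative to the other genes, with a log2 fold change of 1.42 (SE 0.37, adjusted p = 0.00052). The mean transcript length that RSEM gave it was 532 bases in the parental input and 1176 and 1248 bases in the hnRNPK RIPs, and 533 and 730 bases in the FLAG-CBFB cell input and RIP. With the effective length of each library as an offset, added after the data were seen, its log2 fold change was -0.03 (adjusted p = 0.97, in a range from 0.00029 to 0.97 over the alternatives).

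Such a change of length was seen in 6 of the 81 genes, whose mean transcript length was more than 1.5 times that of the parental input in the hnRNPK RIPs (7.41%, beside 5.36% of 9071 protein-coding genes with at least 50 counts in each library). None was shortened as much. NDUFA10, an accessory subunit of complex I, went from 1125 to 1815 and 2333 bases, and NDUFA11, another, from 583 to 1000 and 1108. UQCR11, NDUFA9 and COX7B were the others, at 1.59, 1.54 and 1.53 times. In the FLAG-CBFB RIP none of the 81 passed 1.5 times. The length offset took NDUFA10 from a log2 fold change of -0.02 to -0.93 and NDUFA11 from -0.50 (adjusted p = 0.27) to -1.53 (adjusted p = 0.00092, the smallest in a range up to 0.51). With it, 66 of the 83 subunits fell and 1 rose.

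**Figure D3:**
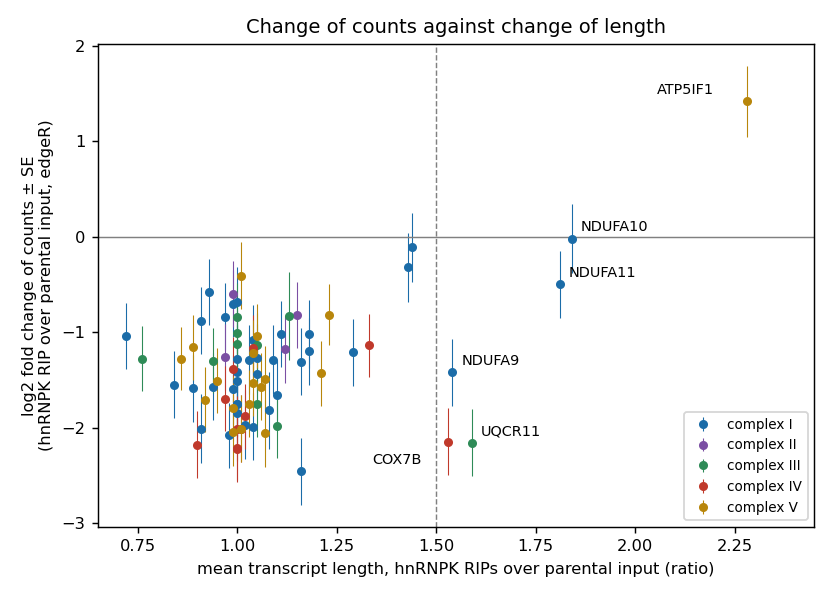
Ratio of the mean transcript length in the hnRNPK RIPs to that in the parental input (x axis) against the edgeR log2 fold change of counts with its standard error (y axis) for the 81 analysed subunits, coloured by complex. The dashed line marks a ratio of 1.5, and ATP5IF1, at 2.28 and 1.42, is the only point above 0.

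The annotation lists short and long transcripts of ATP5IF1, which shows what sequence such a change of length can add. The stretch richest in C is given for the principal transcript and for a longer one.
ATP5IF1-201: ccatgcaagCCCgaggcttcggctcggatc
ATP5IF1-202: CCCCatCCCCCaacagaactCCCgggCCCC

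ATP5IF1-201 has 494 bases in 3 exons and no TCCC, whereas ATP5IF1-202 has 1855 bases in 2 exons and 16 of them. The stretch of ATP5IF1-202 (chr1:28236555-28236584, plus strand) lies in its 3′ UTR and in intron 2 of the principal transcript. The tables give values per gene only, so which transcript was present in a RIP cannot be told from them.

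The mitochondrially encoded subunits went the other way in every RIP. Over the 13, CBFB enrichment ranged from 4.28 to 7.33 (median 5.52) and hnRNPK enrichment from 4.99 to 6.52 (median 6.02). Their FPKM was between 7.66 and 63.4 times higher in the FLAG-CBFB RIP than in its input, and between 5.03 and 14.6 and between 5.14 and 14.8 times higher in the hnRNPK RIPs. By counts, 13 of 13 rose in the hnRNPK RIPs (median log2 fold change 7.16, edgeR). No value of a mitochondrially encoded subunit came near the range of the nuclear-encoded ones in either kind of RIP.

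In complex I, MT-ND3 had 3061 FPKM in the FLAG-CBFB cell input and 193984 in the FLAG-CBFB RIP, the highest CBFB enrichment of the 13 at 7.33. MT-ND1, MT-ND2, MT-ND4 and MT-ND4L were between 5.61 and 5.98, and MT-ND5 and MT-ND6 at 5.22 and 5.32. For hnRNPK the 7 ND genes lay between 5.73 and 6.53 in the repeats. MT-CYB, the 1 mitochondrially encoded subunit of complex III, was at 6.65 for CBFB and at 6.20 and 6.43 for hnRNPK. MT-CO1 and MT-CO3 of complex IV were lowest in both RIPs, at 4.28 and 4.31 for CBFB and from 4.94 to 5.31 for hnRNPK, while MT-CO2 was at 5.18 and at 5.82 and 5.87. In complex V, MT-ATP6 was at 5.48 for CBFB and MT-ATP8 at 5.52, and for hnRNPK at 5.48 and 5.75, and at 6.48 and 6.57.

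The pairs MT-ATP8 and MT-ATP6, and MT-ND4L and MT-ND4, overlap, so how their shared reads were divided bears on each. C makes up between 29.5 and 36.0% of 12 of these transcripts. It makes up 7.0% of MT-ND6, which is encoded on the other strand and holds no TCCC. MT-ND6 was at 1977 FPKM in the parental input but 17429 and 19523 in the hnRNPK RIPs (enrichment 5.75 and 5.98), within the range of the other 12. Whether the counting used strand is not given in the sources used here, so reads from MT-ND6 and from the strand opposite it cannot be told apart.

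The share of a complex's summed FPKM that was nuclear-encoded does not depend on scaling between libraries. In complex I it was 19.1% in the FLAG-CBFB cell input but 0.317% in its RIP, and 12.3% in the parental input but 0.0342% and 0.0350% in the hnRNPK RIPs. In complex III it went from 45.9 to 0.721% and from 29.2 to 0.0993% and 0.0867%. Complex IV was at 14.6 and 7.24% in the inputs, 0.0225 and 0.0218% in the hnRNPK RIPs and 0.561% in the FLAG-CBFB RIP, the lowest of the 4 in the inputs and hnRNPK RIPs by summed FPKM, whereas geometric means per subunit put complex V lowest there. Complex V went from 25.9 to 0.708% and from 16.0 to 0.0524% and 0.0529%. In all 4 complexes the hnRNPK repeats lay close together and below the FLAG-CBFB RIP, which in turn lay below both inputs. Fragments summed without regard to length gave complex V 51.3% in the FLAG-CBFB cell input and 1.90% in its RIP.

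**Figure D4:**
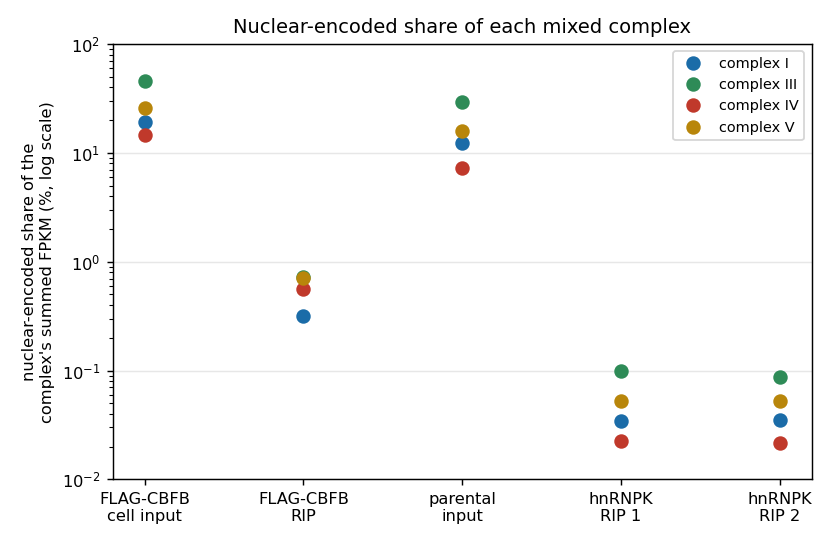
Nuclear-encoded share of the summed FPKM of complexes I, III, IV and V (y axis, percent on a log scale) in each of the 5 libraries (x axis), 1 point per complex and library. The shares of the hnRNPK repeats, from 0.0218 to 0.0993%, lie under those of the FLAG-CBFB RIP, from 0.317 to 0.721%, and those of the inputs, from 7.24 to 45.9%.

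Transcript length and input level moved with these values, and their part in them was not tested. Across the 81 genes, CBFB enrichment had a Spearman rho of -0.62 with the mean transcript length in the input, beside -0.29 over 10562 protein-coding genes outside the mitochondrial genome. Over the 50 assembly factors it was -0.72, so the relation was not particular to the subunits. The 25 subunits of 1000 bases or more in that input were between -0.92 and 0.36 with 1 above 0, and the 56 shorter ones between -0.71 and 0.54 with 16 above 0, so the ranges overlap. With a pseudocount of 0.1, rho was -0.64 over the subunits, -0.80 over the assembly factors and -0.44 over the protein-coding genes. With log2 CPM it was -0.65, -0.83 and -0.48 in the same order. The genes share the same 2 libraries, so these values are descriptions without a p.

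**Figure D5:**
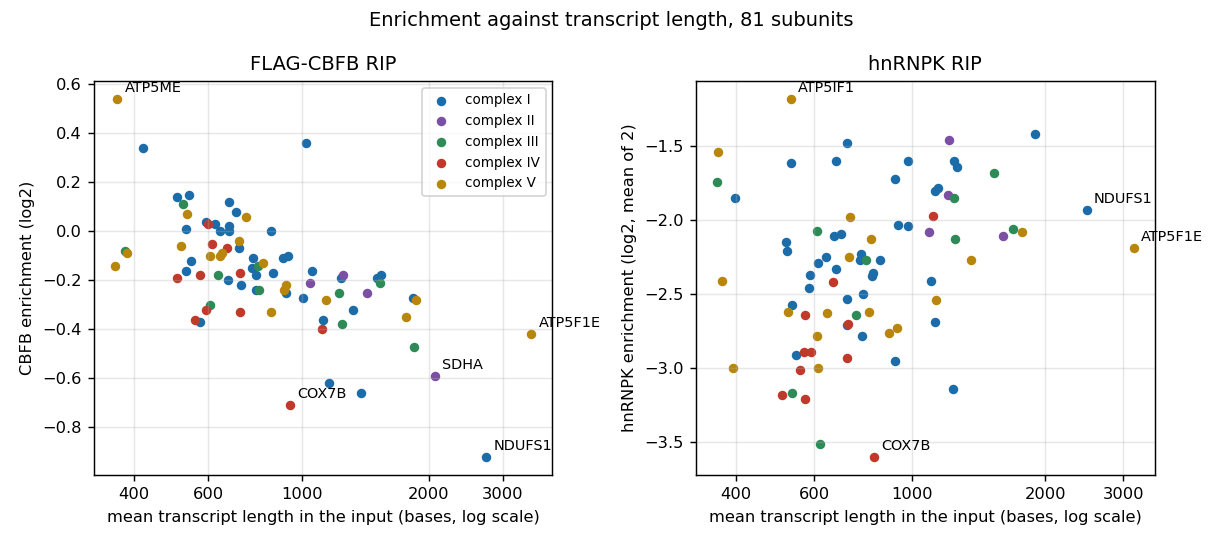
Mean transcript length in the input (x axis, bases, log scale) against CBFB enrichment (left, log2) and mean hnRNPK enrichment (right, log2) of the 81 subunits, coloured by complex. CBFB enrichment is lower in longer transcripts (rho -0.62), from ATP5ME at 0.54 to NDUFS1 at -0.92, while hnRNPK enrichment has a rho of 0.33.

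For hnRNPK, rho was 0.33 with length and -0.51 with FPKM in the parental input over the 81 genes, and 0.42 and -0.74 over the protein-coding genes. The relation with level was weaker with a pseudocount of 0.1 (-0.24 and -0.49) and with log2 CPM (-0.26 and -0.34). Protein-coding genes under 1000 bases had a median hnRNPK enrichment of -1.60 and longer ones -0.10, and genes of at least 100 FPKM in the parental input had -2.04 against -0.08 for weaker ones. Among genes both under 1000 bases and of at least 100 FPKM, the 54 subunits had a median of -2.48 and the 342 other protein-coding genes -2.31. With a pseudocount of 0.1 these were -1.93 and -1.71. Short, abundant mRNAs outside the chain were thus also low in the hnRNPK RIPs.

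Assembly factors build the complexes without staying in them. The 50 listed had longer and weaker mRNAs, with a median of 25.5 FPKM in the parental input against 205 for the subunits. Their median enrichment was -0.07 for CBFB and -1.18 for hnRNPK, and 31 of the 50 were below -1 for hnRNPK. By counts, 25 fell and 1 rose. UQCC2, a factor for complex III, was lowest for hnRNPK, at 185 FPKM in the parental input but 3.09 and 3.81 in the hnRNPK RIPs (-2.89 and -2.59). NDUFAF8, a complex I factor, followed at -2.26 and -2.10. COX19, a copper-handling factor of complex IV, was highest at 0.76 and 0.48, with 4.36 FPKM in the input against 0.49 and 0.17, a level at which the added 1 governs the value. COX10, which takes part in making the haem of complex IV, was at 0.69 and 0.47 and was the 1 factor called higher (log2 fold change 1.49, adjusted p = 0.00055, edgeR).

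The inputs themselves differed for these genes. The subunits' centred log2 difference between the FLAG-CBFB cell input and the parental input had a median of -0.41 and was below 0 in 67 of 81, against 5831 of the 11764 analysed genes. NDUFA6 was furthest, at 53.3 against 130 FPKM (-1.23), and NDUFB5 was highest at 113 against 80.8 (0.52). By length in the parental input, the 59 subunits under 1000 bases had a median of -0.57 and the 22 longer ones -0.05. Protein-coding genes under 1000 bases had -0.47 and longer ones 0.08. The mitochondrially encoded subunits were also lower in the FLAG-CBFB cell input, by a median of -1.36. Some markers of cell state also differed: VIM was at 5.89 FPKM in the FLAG-CBFB cell input and 36.3 in the parental input, and FN1 at 1.32 and 20.6, both mesenchymal. KRT8 was at 76.6 and 196, KRT18 at 305 and 702, and TP63, a basal marker, at 60.4 and 19.7. KRT14, KRT17 and EGFR were also higher in the FLAG-CBFB cell input, but KRT5 (1974 and 1640) and CDH1 (92.9 and 77.0) differed little. Mesenchymal PDGFRB (0.07 and 0.04) and luminal ESR1 (0.71 and 0.67) stayed low in both, and PGR was at 0. The part of these markers in the difference between the inputs was not tested. Cell line and library cannot be told apart here, nor can fewer cells and less RNA per cell in such bulk libraries. Set against the other cells' input, the median CBFB enrichment of the 81 became -0.64 and the median hnRNPK enrichment -1.96.

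A pair of transcripts outside the chain give the scale of these values. RUNX1, the study's target of both proteins, was at 14.1 FPKM in the FLAG-CBFB cell input and 25.1 in the FLAG-CBFB RIP (enrichment 2.13), and at 10.4, 17.3 and 12.2 in the parental input and hnRNPK RIPs (3.29 and 2.89). GAPDH, the study's control, went from 3914 to 1361 FPKM (-0.18) and from 4839 to 125 and 114 FPKM (-2.66 and -2.72). The CBFB value of GAPDH equals the subunits' median, and its hnRNPK value lies within their range.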

How the data were processed

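From MCF10A cells 5 libraries were analysed, and titles gave the groups. The authors quantified each library by gene with RSEM. The submitters' processing notes also name Trimmomatic, STAR and hg19, with no versions. Libraries were made with a TruSeq mRNA kit. In the deposited tables an expected count is an estimate by RSEM, which splits a read among the genes it matches, and the deposited FPKM values divide them by effective length and library total. A length weighted by isoform abundance stands beside each gene.

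Of the gene identifiers, 50276 got symbols by identifier and 484 from GENCODE 29 transcripts. The GRCh38 coordinates are from GENCODE 29, because the tables hold none. Enrichment was log2(FPKM + 1) of a RIP minus its input, centred over 11764 genes. FLAG-CBFB had 1 library per arm and no test. Expected counts rounded to whole numbers were tested for hnRNPK with edgeR 4.0.16 (TMM, filterByExpr, quasi-likelihood, Benjamini-Hochberg over all genes tested, threshold 0.05). On simulated data the test recovered 99 of 184 genes changed 4-fold and called 3 unchanged ones, of 15302 tested, in the same 2 against 1 layout. The simulated libraries shared 1 mean profile and differed only in the changed genes, whereas the real test called 3648 genes higher and 2623 lower. The rate of false calls in the real data therefore cannot be read from the simulation. DESeq2 1.42.0 was an alternative, as were other pseudocounts, centrings, filters, inputs and scalings. Calculations used R 4.3.3 and Python 3.11.15.

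Named were, in each complex, the genes with the highest and lowest enrichment in each RIP among those averaging 1 FPKM or more with 50 counts or more, every subunit past 2 or -2, those under a mean FPKM of 1, all mitochondrially encoded subunits, the 2 highest and 2 lowest assembly factors, GAPDH and RUNX1. NDUFA3, NDUFA10, NDUFB7, NDUFB10, NDUFS4, NDUFS7, NDUFV1, SDHD, UQCRHL and ATP5MG fell outside this rule and were named after their values were seen. The genes and lists were chosen with earlier results of these data known. Some items that the rule would name are not reported here.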

Additional observations from a re-analysis of the deposited data

Results flagged for a closer look

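In 10 of the 81 analysed subunits (12.3%) the kinds of RIP lay on opposite sides of the average gene. CBFB enrichment was above 0 by more than counting error, and both hnRNPK values were below 0. The same held for 498 of the 11764 analysed genes (4.23%). The difference was not tested, since FLAG-CBFB has 1 RIP library, and counting error leaves out the variation between libraries. Both hnRNPK values were below 0 in all 81 subunits, so the CBFB value alone set the 10 apart from the others. Counting error was 0.05 to 0.10 in the 10 and is larger in genes with fewer counts, so the 2 percentages also reflect abundance. The side depends on the centring, since centring on the median (-1.53) in place of the mean (-1.34) raises every CBFB value and no centring puts all 81 subunits below 0, so the smaller values carry no direction of their own. It also depends on the input, since each kind of RIP has its own. All 10 were lower in the FLAG-CBFB cell input than in the parental input, by centred log2 differences from -1.23 (NDUFA6) to -0.41 (NDUFC1). In each of the 10 this difference was larger in size than the CBFB value, and its part was not tested. ATP5ME had a CBFB enrichment of 0.54 and hnRNPK enrichments of -1.84 and -1.24. NDUFA6 had 0.36 against -2.67 and -2.09, and NDUFA3 had 0.34 against -2.05 and -1.66. NDUFB2 had 0.15 against -2.22 and -2.09, and NDUFC1 had 0.14 against -2.26 and -2.16. NDUFB8 had 0.12 against -2.34 and -2.32, and UQCRQ had 0.11 against -3.38 and -2.95. NDUFB10 had 0.08 against -1.53 and -1.43, ATP5IF1 had 0.07 against -1.28 and -1.07, and ATP5MG had 0.06 against -2.16 and -1.81. Over all 81 analysed subunits, 17 (21.0%) had a CBFB value above 0, beside 35.1% of all analysed genes. All 17 also had both hnRNPK values below 0, and the 2 conditions together held for 8.16% of all analysed genes. All 17 were lower in FPKM in the FLAG-CBFB RIP than in its input.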

How the results depend on the processing

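No paired analysis was possible because the inputs and the FLAG-CBFB RIP are single libraries and share no more than 1 replicate number with the hnRNPK RIPs. The edgeR test was not run without an hnRNPK repeat, since 1 library against 1 leaves no residual degrees of freedom.

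The subunits' median CBFB enrichment of -0.18 was 0.03 with a pseudocount of 0.1, -1.52 without centring, 0.01 with median centring, 0.01 with FPKM rescaled outside the mitochondrial genome, -1.18 over all genes, -0.64 against the other input, and 0.15 and 0.24 as log2 CPM with TMM and DESeq2 factors. Their hnRNPK median of -2.27 was, in the same order, -1.73, -4.91, -2.16, -1.63, -4.28, -1.96, -1.71 and -1.46, and -1.62 over genes of at least 10 FPKM. The mitochondrially encoded median was 5.74, 4.18, 5.71, 5.72, 4.49, 4.32, 6.0 and 6.08 for CBFB (5.43 with effective lengths of at least 300). For hnRNPK it was 6.82, 3.38, 6.13, 6.90, 3.99, 7.34, 6.86 and 7.12, with 6.67 over genes of at least 10 FPKM and 5.87 with effective lengths of at least 300. Single hnRNPK repeats gave -2.32 to -2.28 for the subunits and 5.96 to 6.04 for the mitochondrially encoded ones.

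Subunits above 1 for CBFB numbered 1 and 2 with log2 CPM (TMM and DESeq2) instead of 0, and for hnRNPK 1 and 1 instead of 0. Those below -1 for CBFB numbered 78 without centring, 68 over all genes and 5 against the other input, instead of 0. The number below -1 for hnRNPK was between 65 and 82 (the 82 over all 89 genes) instead of 81. edgeR called 1 subunit higher, not 2, with both inputs as controls and with the length offset, and between 55 and 75 lower. With the offset ATP5IF1 turned to -0.03. The causes were not tested.

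The nuclear-encoded shares were recomputed in the library order FLAG-CBFB cell input, FLAG-CBFB RIP, parental input, hnRNPK RIP 1 and 2. From counts they were 19.2, 0.375, 10.9, 0.0375 and 0.0354% for complex I, 38.3, 0.495, 22.2, 0.0772 and 0.0595% for complex III, 8.68, 0.341, 4.19, 0.0158 and 0.0149% for complex IV, and 51.3, 1.90, 30.1, 0.205 and 0.164% for complex V. With effective lengths of at least 300 they were 18.7, 0.307, 11.9, 0.0328 and 0.0332% for complex I, 45.2, 0.699 and 28.7% in the first 3 libraries for complex III, and 20.7, 0.496, 12.2, 0.0385 and 0.0351% for complex V. From geometric means per subunit they were 4.17, 0.0681, 2.68, 0.00690 and 0.00645% for complex I, 6.44, 0.0585, 3.22, 0.00780 and 0.00642% for complex III, 4.11, 0.148, 1.89, 0.00596 and 0.00556% for complex IV, and 3.22, 0.0670, 1.81, 0.00475 and 0.00466% for complex V. The order of inputs, FLAG-CBFB RIP and hnRNPK RIPs held in each.

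Depth limits the low end: the hnRNPK RIPs held 45550 and 36144 counts of these subunits, against 950466 in the parental input.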
